A study of Mus musculus with 8 samples.

Results

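The transcripts described here are those of insulin-like growth factor 1 (Igf1), its receptor (Igf1r), 6 IGF binding proteins (Igfbp2 to Igfbp7) and 2 receptor substrates (Irs1 and Irs2). These 10 genes were taken by symbol from the 26667 genes counted in mouse undifferentiated pleomorphic sarcoma (UPS), and all 10 passed the filter on low counts, beside 14867 genes tested in all. UPS is a soft tissue sarcoma whose cells show no defined line of differentiation, so no marker gene defines it. Tumours arose in hind limb muscle of Trp53 fl/fl mice after local injection of an adenovirus carrying Cre, which removes p53 in the cells it infects. The 4 KP tumours (KP 5 to KP 8) and the 4 KPH2 tumours (KPH2 1 to KPH2 4) shared this background, and the KPH2 tumours carried Epas1 fl/fl as well, so that Cre also removed the gene of HIF-2α, a transcription factor stabilised when oxygen is low. The mice were of both sexes and of mixed 129 and C57BL/6 background, with only a lower limit given for their age at injection. Each library was made from 1 tumour, cut as sections from a formalin-fixed, paraffin-embedded (FFPE) block, in which cells that Cre had not reached stayed in the sample. In such bulk RNA, fewer cells of a type and less RNA per cell cannot be told apart.

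IGF1 is a secreted growth factor that binds the receptor tyrosine kinase IGF1R, which passes the signal through the docking proteins IRS1 and IRS2 to PI3K and AKT. Secreted IGF binding proteins hold most IGF outside the cell, prolong its life and govern its access to the receptor, and some also act without IGF. In skeletal muscle, the tissue around these tumours, IGF1 is known as a growth and repair factor.

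All 10 genes had an entry in the RefSeq table of promoters (GRCm38.p6), which gives 250 bases before and 50 bases after a transcript start. They are shown because HIF-2α, the factor deleted in KPH2 tumours, recognises the core letters ACGTG or GCGTG, and the table lets the members be read for them. Capitals mark these letters or, from the other strand, CACGT or CACGC; in CACGTG the matches on both strands overlap. The windows below belong to the ligand, to the receptor and to 2 binding protein genes that are neighbours, Igfbp2 and Igfbp5, whose genes lie 5590 bases apart on chromosome 1.
Igf1, chr10:87860861-87861160, + strand: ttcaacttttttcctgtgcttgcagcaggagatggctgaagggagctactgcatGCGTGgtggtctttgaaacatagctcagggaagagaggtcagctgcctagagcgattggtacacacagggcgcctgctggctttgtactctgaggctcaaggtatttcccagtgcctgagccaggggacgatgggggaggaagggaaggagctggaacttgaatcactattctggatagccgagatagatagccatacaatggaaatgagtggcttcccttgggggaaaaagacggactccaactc
Igf1r, chr7:67952007-67952306, + strand: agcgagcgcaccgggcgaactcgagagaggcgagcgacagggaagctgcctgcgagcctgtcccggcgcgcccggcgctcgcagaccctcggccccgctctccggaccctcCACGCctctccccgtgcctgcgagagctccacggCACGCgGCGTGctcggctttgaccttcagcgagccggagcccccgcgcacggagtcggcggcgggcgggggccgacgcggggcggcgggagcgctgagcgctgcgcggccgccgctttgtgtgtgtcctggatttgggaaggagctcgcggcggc
Igfbp2, chr1:72824230-72824529, + strand: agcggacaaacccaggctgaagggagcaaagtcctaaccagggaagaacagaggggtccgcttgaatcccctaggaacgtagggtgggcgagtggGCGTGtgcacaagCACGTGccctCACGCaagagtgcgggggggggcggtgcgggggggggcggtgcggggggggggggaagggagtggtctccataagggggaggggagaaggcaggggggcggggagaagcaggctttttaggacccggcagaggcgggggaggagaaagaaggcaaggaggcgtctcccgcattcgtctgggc
Igfbp5, chr1:72874816-72875115, - strand: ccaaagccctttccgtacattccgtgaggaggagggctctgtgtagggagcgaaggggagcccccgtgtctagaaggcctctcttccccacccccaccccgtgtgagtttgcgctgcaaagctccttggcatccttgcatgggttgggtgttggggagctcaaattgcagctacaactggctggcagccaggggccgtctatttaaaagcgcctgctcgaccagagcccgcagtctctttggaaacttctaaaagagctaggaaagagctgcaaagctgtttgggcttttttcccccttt
The motif was found in 8 of the 11 windows, which belong to 7 of the 10 members, and in none of the windows of Igfbp4, Igfbp5 and Igfbp6. By comparison, 43.8% of the 32851 windows of this length in the table held it. The Igf1r window had 3 matches, the first Igfbp2 window 4 and the Igf1 window 1. The Igf1 window lies at a transcript start inside the gene, downstream of the gene's first base. A match shows letters only, and binding was not measured here.

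Total counts per tumour ran from 6463221 to 13155510. No pair of libraries agreed within sampling noise, so none was taken for a library deposited more than once, and each was used as the separate tumour that its label gives. KPH2 1 is absent from one of the deposited tables of normalised values, and the methods of the study set aside a knockout tumour found to be an outlier by principal component analysis, although the study's own results and methods differ on which group had fewer tumours. The main comparison therefore set KP 5 to KP 8 against KPH2 2 to KPH2 4, and each result was repeated with KPH2 1. Levels are counts per 1e+06 counts of the TMM-scaled library (CPM), and differences are log2 fold changes, KPH2 minus KP, with the standard error (SE) and the adjusted p of edgeR's quasi-likelihood test over all genes tested. Epas1 itself (Entrez Gene 13819, chromosome 17 from 86753864 to 86833410) was at 59.2, 83.2, 86.8 and 84.0 CPM in KP 5, 6, 7 and 8, at 53.3, 37.7 and 42.5 CPM in KPH2 2, 3 and 4, and at 32.7 CPM in KPH2 1. Every KPH2 tumour lay below every KP tumour, with a mean of 78.3 ± 12.8 (SD, n = 4) against 44.5 ± 7.99 CPM (SD, n = 3). Its log2 fold change was −0.81 (SE 0.19), with an adjusted p of 0.0742 by edgeR, 0.117 with KPH2 1 and 0.00763 by DESeq2. With 1 tumour left out the adjusted p by edgeR ran from 0.0442 (without KP 5) to 0.219 (without KPH2 4), and only the fit without KP 5 passed. Reads counted for Epas1 thus remained in all KPH2 tumours, for which the paper reports efficient deletion of the gene by PCR. A count over the whole gene cannot tell transcripts of cells that Cre had not reached from those of a cut allele. Their source was not tested.

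**Figure D1:**
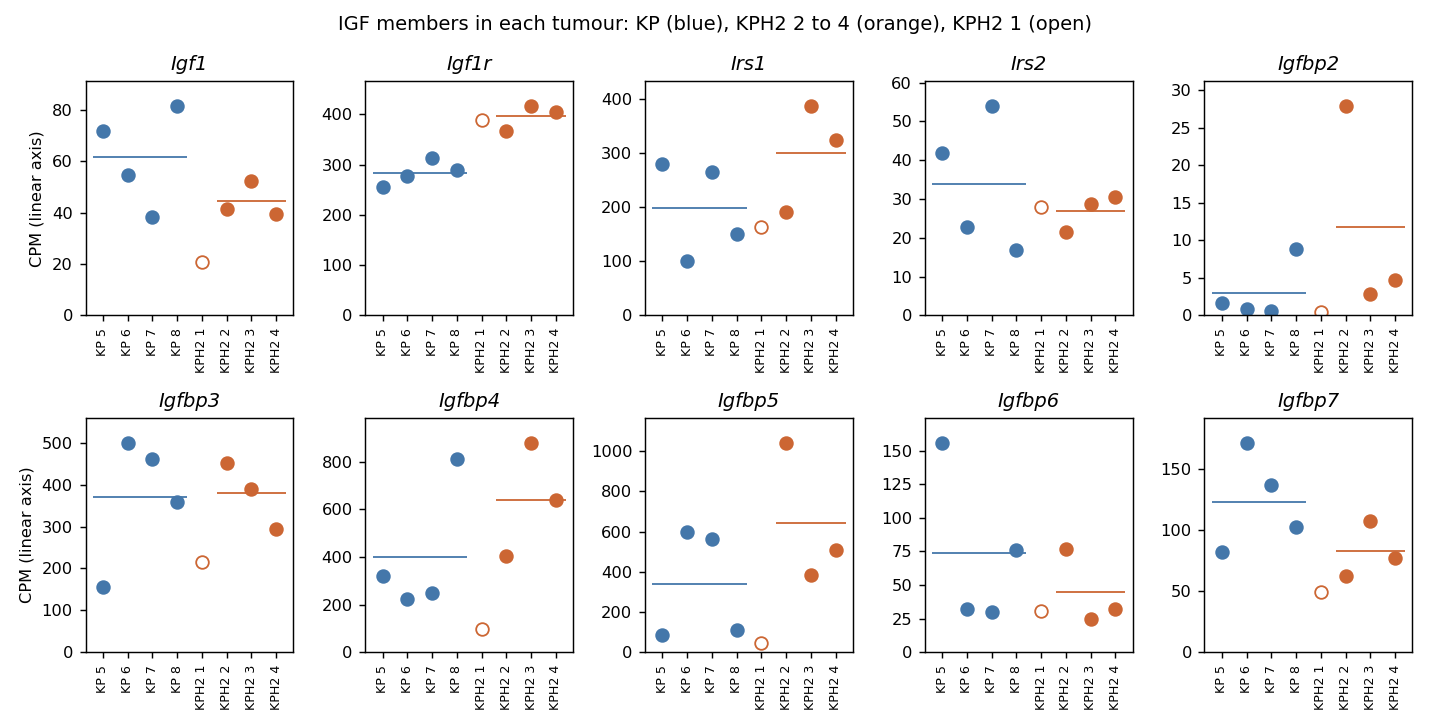
Level of each of the 10 IGF genes (CPM, linear axes that start at 0) in each tumour, with KP in blue, KPH2 2 to 4 in orange and KPH2 1 as an open circle; lines show the means of KP (n = 4) and of KPH2 2 to 4 (n = 3). Igf1r is the gene whose 4 KP values, 255.7 to 312.2 CPM, all lie below its KPH2 values, 366.2 to 416.0 CPM, while the points of the other 9 genes overlap between the groups.

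At an adjusted p of 0.05, edgeR called 0 of the 10 IGF genes, where 1.96% of all tested genes were called. At an unadjusted p of 0.05, 1 of the 10 (Igf1r) passed, beside 17.8% of all genes. DESeq2, an alternative count model, also called 1 of the 10, again Igf1r, where it called 7.95% of all genes. With KPH2 1 included edgeR called none of the members and 0.00675% of all genes. The shares are thus near the background, and the members as a list did not stand out from it. The fitted difference was above 0 for 6 members and below 0 for 4, with a median log2 fold change of 0.26, where 7143 genes lay above and 7724 below 0 over all genes and the median was −0.02. With KPH2 1 the members divided 5 and 5, with a median of 0.10 against 0.01 over all genes.

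Igf1r (Entrez Gene 16001, chromosome 7 from 67952257 to 68233668, plus strand), the receptor kinase, was the member whose groups stood apart. Its level was 255.7, 276.6, 312.2 and 290.0 CPM in KP 5, 6, 7 and 8, and 366.2, 416.0 and 405.1 CPM in KPH2 2, 3 and 4. KPH2 1 stood at 388.7 CPM, inside the range of the other KPH2 tumours. Every KPH2 tumour was therefore above every KP tumour, and the highest KP value and the lowest KPH2 value belonged to KP 7 and KPH2 2. The means were 283.6 ± 23.7 CPM (SD, n = 4) and 395.8 ± 26.2 CPM (SD, n = 3), a fitted 1.40-fold difference. Its log2 fold change was 0.48 (SE 0.14, 95% interval 0.17 to 0.79), with an unadjusted p of 0.00692 and an adjusted p of 0.118 by edgeR. Over all 8 tumours it was 0.47 (SE 0.12, 95% interval 0.20 to 0.75), with an adjusted p of 0.163. The adjusted p was 0.0177 by DESeq2, so that the call depended on the tool. A two-sided exact permutation test of the log2 CPM gave p = 0.029 both over the 7 tumours and over all 8, the smallest p that either design allows, as an unadjusted value for 1 of 10 members tested.

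Non-overlap of the groups was itself common: 8.67% of all genes were higher in each of KPH2 2 to 4 than in every KP tumour, and 8.19% lower. Among the members it held for 1 gene in the higher direction and 0 in the lower. Over all 8 tumours the shares of all genes were 3.76% and 4.41%, and the counts of members were again 1 and 0.

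Igf1r also varied little within the groups. Its highest KP level was 1.22 times its lowest, and its highest level in KPH2 2 to 4 was 1.14 times its lowest. The SD of its log2 CPM was 0.12 among KP tumours, where the median over all genes was 0.33, and 6.77% of tested genes varied less. Among KPH2 2 to 4 that SD was 0.10, with 15.3% of genes varying less.

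Igf1 (Entrez Gene 16000, chromosome 10 from 87858265 to 87937047, plus strand), the ligand, lay on the other side of 0. Its level was 71.9, 54.8, 38.2 and 81.5 CPM in KP 5, 6, 7 and 8, 41.6, 52.4 and 39.6 CPM in KPH2 2, 3 and 4, and 20.9 CPM in KPH2 1. KP 7 was below KPH2 2 to 4 and KP 6 close to KPH2 3, so the groups overlapped, while KPH2 1 was the lowest of all 8. The means were 61.6 ± 19.1 (SD, n = 4) and 44.5 ± 6.86 CPM (SD, n = 3), and the log2 fold change was −0.47 (SE 0.26, 95% interval −1.07 to 0.12, adjusted p = 0.396 by edgeR). With KPH2 1 it was −0.68 (SE 0.31, adjusted p = 0.355 by edgeR), and with a tumour left out it ran from −0.31 (without KP 8) to −0.64 (without KP 7). The exact permutation test did not pass in either set, with p of 0.23 over 7 tumours and 0.14 over 8.

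Per kilobase of exon, the scale on which genes can be compared with each other, the receptor transcript was above the ligand transcript in all 8 tumours. The ratio of Igf1r to Igf1 in CPM per kb was 2.69, 3.82, 6.18 and 2.69 in KP 5, 6, 7 and 8, and 6.66, 6.01 and 7.73 in KPH2 2, 3 and 4. KPH2 1 had a ratio of 14.1, with the lowest Igf1 of the series. KP 7 lay among the KPH2 tumours in this ratio, which was formed after the levels had been seen and was not tested.

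The receptor substrates did not separate the groups. Irs1 (Entrez Gene 16367, chromosome 1 from 82233105 to 82291439, minus strand) was at 280.5, 99.9, 265.9 and 150.9 CPM in KP 5, 6, 7 and 8, at 190.5, 387.1 and 323.8 CPM in KPH2 2, 3 and 4, and at 163.6 CPM in KPH2 1. KPH2 3 and KPH2 4 were above every KP tumour, whereas KPH2 1 and KPH2 2 lay inside the KP range. For Irs1 the log2 fold change was 0.59 (SE 0.39, 95% interval −0.30 to 1.49), with an adjusted p of 0.481 by edgeR and 0.665 with KPH2 1, and it ran from 0.37 without KPH2 3 to 0.84 without KPH2 2. Irs2 (Entrez Gene 384783, chromosome 8 from 10984681 to 11008929, minus strand) was at 41.8, 22.8, 53.9 and 16.8 CPM in KP 5, 6, 7 and 8, at 21.5, 28.6 and 30.5 CPM in KPH2 2, 3 and 4, and at 27.8 CPM in KPH2 1. All 4 KPH2 values of Irs2 fell inside the KP range. Its log2 fold change was −0.33 (SE 0.39, 95% interval −1.23 to 0.56, adjusted p = 0.714 by edgeR), and ran from −0.02 without KP 7 to −0.56 without KP 8. Per kb of exon Irs1 exceeded Irs2 in every tumour, by 3.03 to 6.20 times in KP, 6.13 to 9.36 times in KPH2 2 to 4 and 4.07 times in KPH2 1.

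The KP and KPH2 ranges overlapped for each of the 6 binding proteins. Igfbp2 (Entrez Gene 16008, chromosome 1 from 72824480 to 72852474, plus strand), a carrier of IGF that is often raised in tumours, had the widest range. It was at 1.63, 0.849, 0.592 and 8.90 CPM in KP 5, 6, 7 and 8, at 27.9, 2.90 and 4.73 CPM in KPH2 2, 3 and 4, and at 0.481 CPM in KPH2 1. KPH2 2 held the highest value and KPH2 1 the lowest, so the extremes of the series were both in KPH2. These levels rested on 4 to 310 counts per tumour. Its log2 fold change of 1.92 (SE 1.04, 95% interval −0.48 to 4.32, adjusted p = 0.389 by edgeR) became 3.44 without KP 8 and 0.30 without KPH2 2. Over all 8 tumours the adjusted p was 0.586.

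Igfbp5 (Entrez Gene 16011, chromosome 1 from 72858065 to 72874865, minus strand), the neighbour of Igfbp2 and a binding protein that is also attached to the extracellular matrix, also varied widely. Its level was 87.5, 596.3, 560.8 and 108.0 CPM in KP 5, 6, 7 and 8, 1041 (KPH2 2), 382.7 (KPH2 3) and 507.3 CPM (KPH2 4), and 45.4 CPM in KPH2 1. KP 6 and KP 7 were several times above KP 5 and KP 8 and stood among KPH2 2 to 4. For Igfbp5 the log2 fold change was 0.93 (SE 0.72, 95% interval −0.73 to 2.59, adjusted p = 0.558 by edgeR), and 0.55 with KPH2 1 (adjusted p = 0.821). It ran from 0.40 without KPH2 2 to 1.35 without KP 6.

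Igfbp4 (Entrez Gene 16010, chromosome 11 from 99040005 to 99052655, plus strand), a binding protein cut by the protease PAPP-A to free IGF, was at 319.0, 222.4, 248.1 and 813.7 CPM in KP 5, 6, 7 and 8. In KPH2 2, 3 and 4 it was at 403.0, 879.9 and 638.1 CPM, and in KPH2 1 at 95.7 CPM. KPH2 2 to 4 were above all KP tumours other than KP 8, and KPH2 1 was below all others. Its log2 fold change of 0.68 (SE 0.48, 95% interval −0.44 to 1.79, adjusted p = 0.521 by edgeR) was 1.28 without KP 8, with an adjusted p of 0.102, 0.38 without KPH2 3, with an adjusted p of 0.814, and 0.33 with KPH2 1.

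Igfbp3 (Entrez Gene 16009, chromosome 11 from 7206086 to 7215498, minus strand), the main IGF carrier of blood plasma, differed least. It was at 156.8, 500.0, 462.6 and 359.8 CPM in KP 5, 6, 7 and 8, at 452.7, 390.6 and 294.5 CPM in KPH2 2, 3 and 4, and at 216.3 CPM in KPH2 1. All KPH2 values lay inside the KP range. A log2 fold change of 0.04 was fitted (SE 0.37, 95% interval −0.81 to 0.88, adjusted p = 0.972 by edgeR), and its sign turned with KPH2 1 included (−0.13), without KP 5 (−0.21) and without KPH2 2 (−0.11).

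Igfbp6 (Entrez Gene 16012, chromosome 15 from 102144186 to 102149512, plus strand) is known for its preference for IGF2 over IGF1. Its level was 155.8, 32.1, 29.9 and 76.2 CPM in KP 5, 6, 7 and 8, 76.6, 24.4 and 32.3 CPM in KPH2 2, 3 and 4, and 31.0 CPM in KPH2 1. KP 5 was the highest and the other 7 tumours overlapped. A log2 fold change of −0.73 (SE 0.65, 95% interval −2.22 to 0.77, adjusted p = 0.614 by edgeR) was −0.04 without KP 5 and −1.38 without KPH2 2.

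Igfbp7 (Entrez Gene 29817, chromosome 5 from 77349240 to 77408045, minus strand), a relative with low affinity for IGF that is prominent in blood vessels, had the smallest p of the members on the lower side. Its level was 82.0, 171.8, 137.2 and 102.5 CPM in KP 5, 6, 7 and 8, 62.9, 107.6 and 77.5 CPM in KPH2 2, 3 and 4, and 49.5 CPM in KPH2 1. KPH2 1 was lowest, KPH2 2 and KPH2 4 were also below every KP tumour, and KPH2 3 was inside the KP range. The means were 123.4 ± 39.5 (SD, n = 4) and 82.6 ± 22.8 CPM (SD, n = 3), and the log2 fold change was −0.58 (SE 0.29, 95% interval −1.23 to 0.08, adjusted p = 0.34 by edgeR), with −0.38 without KP 6 and −0.81 without KPH2 3. Over all 8 tumours it was −0.73 (95% interval −1.39 to −0.07, adjusted p = 0.30 by edgeR), with an exact permutation p of 0.086, against 0.14 over 7 tumours. Endothelial marker transcripts lay on the same side of 0 for 10 of 12 genes, none of them called, and their summed level was 370.0 to 723.3 CPM in KP, 386.1 to 408.7 CPM in KPH2 2 to 4 and 287.3 CPM in KPH2 1. None of these markers was at 0 in all libraries, and their part in the level of Igfbp7 was not tested.

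**Figure D2:**
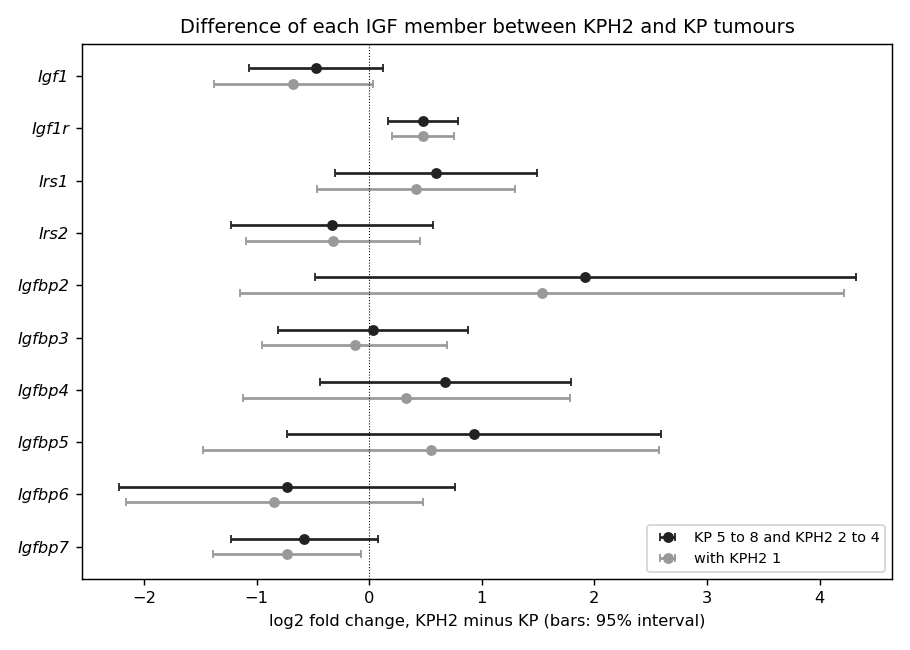
Log2 fold change, KPH2 minus KP, of each IGF gene with its 95% interval from edgeR, over KP 5 to 8 and KPH2 2 to 4 (black) and with KPH2 1 added (grey). The interval of Igf1r, 0.17 to 0.79, lies above 0 in both sets, the interval of Igfbp7 lies below 0 only with KPH2 1 (−1.39 to −0.07), and the intervals of the other 8 genes span 0 in both.

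Among KP tumours the highest level exceeded the lowest 15.02 times for Igfbp2, 6.81 times for Igfbp5, 5.21 times for Igfbp6 and 3.66 times for Igfbp4. These 4 binding proteins varied more within KP, as the SD of log2 CPM, than at least 90.6% of all tested genes, with 98.5% for Igfbp2 and 98.1% for Igfbp5. Within KPH2 2 to 4 the shares were 99.1% for Igfbp2, 89.8% for Igfbp5, 92.4% for Igfbp6 and 82.8% for Igfbp4. Igfbp3, Irs1 and Irs2 ranged 3.19, 2.81 and 3.21 times within KP, and Igf1 and Igfbp7 ranged 2.13 and 2.09 times. Igf1r was thus the least variable member within KP and Igfbp2 the most.

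The place of KPH2 1 differed between the members. For Igf1, Igfbp2, Igfbp4, Igfbp5 and Igfbp7 it was below every other tumour of the series. For Igfbp3 and Irs1 it was below KPH2 2 to 4 but inside the KP range, and for Igfbp6 and Irs2 inside both ranges. Igf1r was the member for which KPH2 1 lay with KPH2 2 to 4 and outside the KP range.

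Compared per kb of exon, Igfbp3 had the highest median over the 8 tumours (155 CPM per kb), followed by Igfbp4 (94.2), Igfbp7 (76.3) and Igfbp5 (74.1 CPM per kb). Igf1r (29.7), Igfbp6 (29.0) and Irs1 (25.0 CPM per kb) formed a middle group whose ranges overlapped. Igf1 (5.44), Irs2 (4.46) and Igfbp2 (1.55 CPM per kb) were lowest. The ranges of neighbours in this order overlapped over the 8 tumours, except that the lowest level of Irs1, 10.9 CPM per kb in KP 6, was above the highest level of Igf1, 9.45 CPM per kb in KP 8.

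The make-up of the binding protein transcripts was not the same from tumour to tumour. The binding protein with the largest share of their summed level per kb was Igfbp6 in KP 5 (37.7%), Igfbp3 in KP 6 (38.6%) and KP 7 (39.0%), and Igfbp4 in KP 8 (39.4%). In KPH2 tumours it was Igfbp3 in KPH2 1 (46.8%) and KPH2 2 (30.9%), and Igfbp4 in KPH2 3 (40.5%) and KPH2 4 (35.5%). No single binding protein therefore led in all tumours of either group. Igfbp3, Igfbp4 and Igfbp5 together made up 43.8%, 68.0%, 71.3% and 70.4% in KP 5, 6, 7 and 8, and 76.9%, 80.1% and 79.5% in KPH2 2, 3 and 4, with 63.8% in KPH2 1. KPH2 2 to 4 lay above every KP tumour in this share and KPH2 1 did not. The share of Igfbp7 was 18.3%, 26.5%, 23.2% and 15.7% in KP 5, 6, 7 and 8, and 8.59%, 15.7% and 13.7% in KPH2 2, 3 and 4, with 21.4% in KPH2 1. These shares were formed after the levels had been seen and are given without a test.

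The summed level of the binding proteins was 371.7, 535.4, 489.9 and 538.4 CPM per kb in KP 5, 6, 7 and 8, and 605.5, 567.6 and 469.1 CPM per kb in KPH2 2, 3 and 4. KPH2 1 had the lowest sum, 191.0 CPM per kb, and without it the groups overlapped. Relative to Igf1 the sum was 44.6 to 110.7 times as high in KP, 93.6 to 125.7 times in KPH2 2 to 4 and 78.8 times in KPH2 1.

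**Figure D3:**
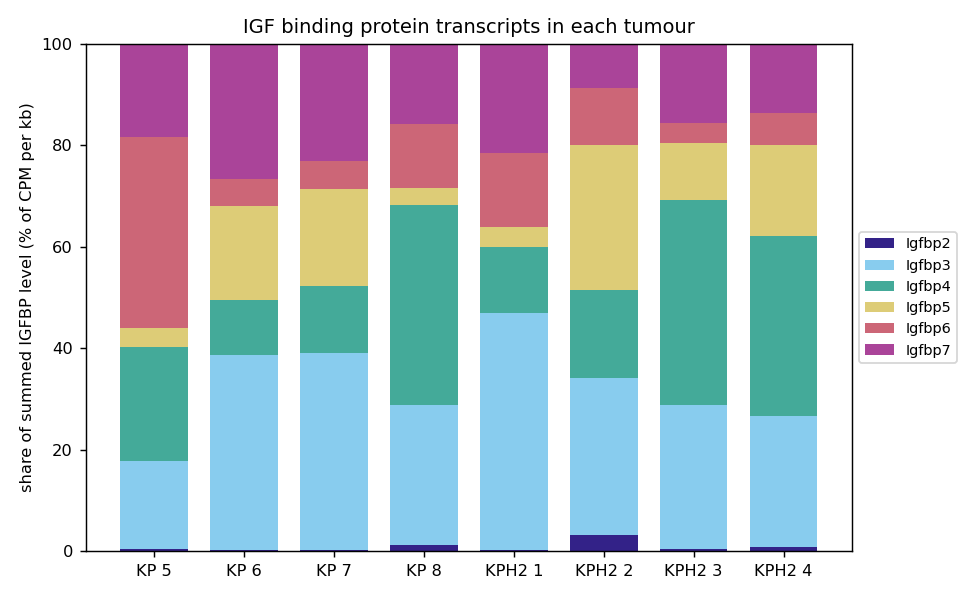
Share of each of the 6 binding proteins (% of their summed CPM per kb of exon) in each tumour, stacked to 100%. The leading transcript changes between tumours, from Igfbp6 in KP 5 (37.7%) to Igfbp3 in KPH2 1 (46.8%), and Igfbp2 stays at or below 3.15% in all of them.

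The genes whose pattern over the 8 tumours was most like that of Igf1r, by Pearson's r of log2 CPM among 14866 other genes, were D7Ertd715e (r = 0.978), Noc4l (r = 0.975) and Actr8 (r = 0.954). For Igfbp7 they were Gm12854 (r = 0.980), March3 (r = 0.964) and Naalad2 (r = 0.960). These are descriptions over 8 libraries that share the difference between groups, with the best of many genes kept. Of the 6 genes, none was called by edgeR between the groups. The log2 fold change was 2.73 for D7Ertd715e (adjusted p = 0.0628 by edgeR), 0.53 for Noc4l (adjusted p = 0.0994), which encodes a nucleolar protein of ribosome formation, and 0.38 for Actr8 (adjusted p = 0.209), which encodes a subunit of the INO80 chromatin remodelling complex. It was −0.51 for Gm12854, −0.91 for March3, a membrane ubiquitin ligase, and −1.43 for Naalad2, a peptidase, with adjusted p of 0.606, 0.248 and 0.409 by edgeR.

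A list of 44 further genes of the pathway covered other ligands and receptors, adaptors, the proteases that cut binding proteins, PI3K and AKT, and the growth hormone axis that drives Igf1. Of these, 38 were tested, 17 lay above 0 and 21 below, and edgeR called 0 of them over 7 tumours and over all 8. At an unadjusted p of 0.05, 2 were higher (Pik3r2 and Foxo4) and 2 lower (Pappa2 and Stat5b), which as a share is below the 17.8% of all genes. The median log2 fold change was −0.08, beside −0.02 over all genes. Not tested for low counts were Insrr, Igfals, Igfbp1, Igfbpl1, Irs3 and Irs4, with 7 counts of Igfbp1 and 0 of Igfbpl1 over all libraries.

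Among the other ligands, Igf2, the fetal growth factor that shares the receptor with IGF1, was at 115.9, 352.6, 409.1 and 22.6 CPM in KP 5, 6, 7 and 8, at 167.1, 343.5 and 121.1 CPM in KPH2 2, 3 and 4, and at 433.3 CPM in KPH2 1. It was named after its values were seen. All 4 KP tumours lay outside the range of KPH2 2 to 4, KP 5 and KP 8 below it and KP 6 and KP 7 above it, and KPH2 1 was the highest of all 8. Igf2 was not among the genes with an unadjusted p under 0.05.

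The 5 proteases of binding proteins and their inhibitors all had a log2 fold change below 0, with a median of −0.58, and none was called by edgeR. Pappa2, a protease that cuts IGFBP3 and IGFBP5, had the largest difference. It was at 18.9, 8.07, 22.7 and 1.13 CPM in KP 5, 6, 7 and 8, at 1.08, 1.30 and 1.01 CPM in KPH2 2, 3 and 4, and at 21.7 CPM in KPH2 1. KP 8 lay among KPH2 2 to 4, and KPH2 1 lay with the high KP tumours. Pappa2 had a log2 fold change of −3.47 (SE 0.92, adjusted p = 0.106 by edgeR) over 7 tumours and −1.002 (adjusted p = 0.735) over all 8. Without KP 8 it was −3.86 with an adjusted p of 0.0278 by edgeR. With any other tumour left out the adjusted p by edgeR did not pass, and reached 0.274 without KPH2 2. DESeq2 gave an adjusted p of 3e-04 over the 7 tumours.

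Of 14 genes of PI3K, AKT and FOXO, 9 lay above and 5 below 0, with a median log2 fold change of 0.08. Groups that did not overlap were seen for 3 of them in the higher and 1 in the lower direction over 7 tumours, and for 1 and 1 over all 8. Over all tested genes the shares were 8.67% higher and 8.19% lower for 7 tumours, and 3.76% and 4.41% for all 8. With so few genes in the list, these counts are not read as a result about it. The lower gene of the list was Pik3cd, a catalytic subunit of PI3K in blood cells, with a log2 fold change of −0.40 (adjusted p = 0.312 by edgeR), named after its values were seen. Pik3r2, a regulatory subunit of PI3K, was at 41.8, 47.3, 74.4 and 60.6 CPM in KP 5, 6, 7 and 8, at 82.8, 93.7 and 101.6 CPM in KPH2 2, 3 and 4, and at 56.4 CPM in KPH2 1. KPH2 2 to 4 lay above every KP tumour and KPH2 1 inside the KP range. The log2 fold change of Pik3r2 was 0.73 (SE 0.21, adjusted p = 0.125 by edgeR, 0.044 by DESeq2), and with KPH2 1 it was 0.58 (adjusted p = 0.305 by edgeR). Foxo4, a transcription factor restrained by AKT, was at 22.9, 24.1, 23.4 and 23.1 CPM in KP 5, 6, 7 and 8, at 27.5, 51.3 and 25.6 CPM in KPH2 2, 3 and 4, and at 27.0 CPM in KPH2 1. Every KPH2 tumour was above every KP tumour, with KPH2 3 far above the rest. Foxo4 had a log2 fold change of 0.57 (SE 0.25, adjusted p = 0.273 by edgeR), which was 0.19 without KPH2 3.

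In the growth hormone axis 2 of 6 genes lay above and 4 below 0. Stat5b, which carries the growth hormone signal to the Igf1 gene, was at 48.0, 27.2, 30.8 and 37.3 CPM in KP 5, 6, 7 and 8, at 17.7, 23.8 and 20.6 CPM in KPH2 2, 3 and 4, and at 19.6 CPM in KPH2 1. It was lower in each KPH2 tumour than in every KP tumour, with or without KPH2 1. Its log2 fold change was −0.79 (SE 0.23, adjusted p = 0.121 by edgeR, 0.0367 by DESeq2), and −0.81 (adjusted p = 0.156 by edgeR) over all 8 tumours. The adaptors divided 3 above and 4 below 0, and the IGF2 mRNA binding proteins 2 and 1.

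**Figure D4:**
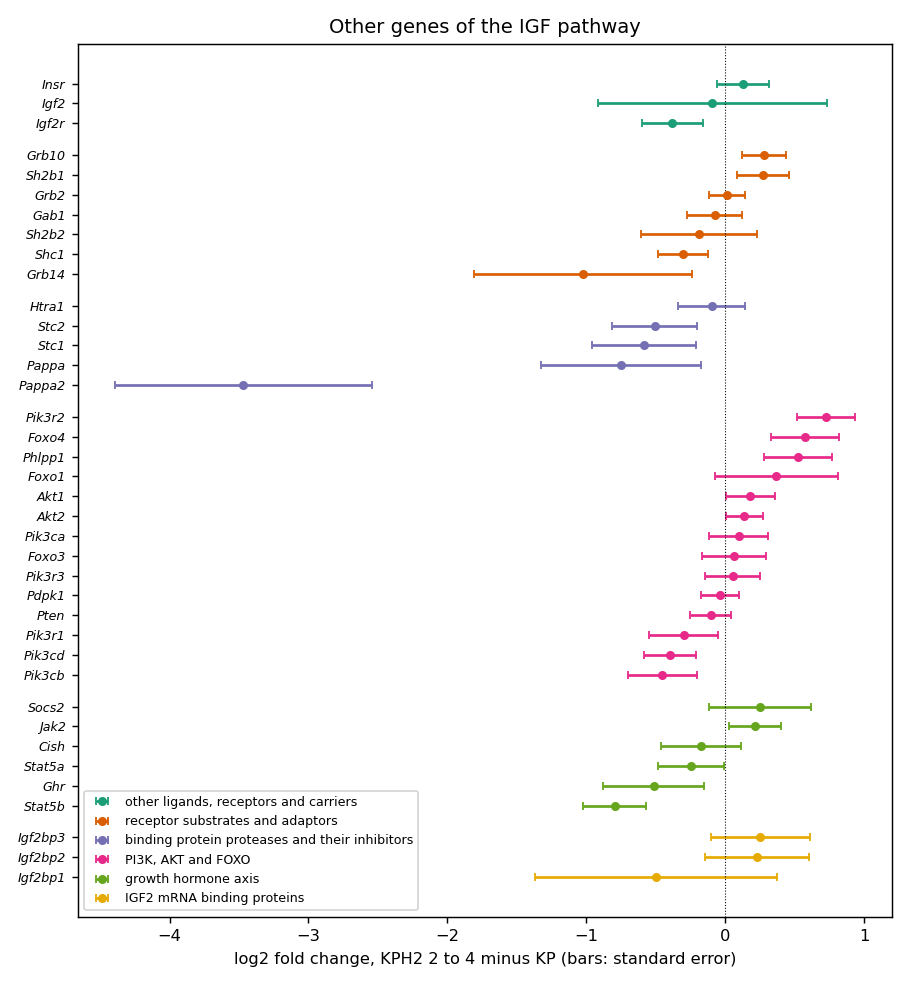
Log2 fold change, KPH2 2 to 4 minus KP, with its standard error, for the 38 other pathway genes tested by edgeR, coloured by role. Pappa2 (−3.47) lies farthest from 0, all 5 proteases and inhibitors lie below 0, and none of the 38 passed the adjusted p of 0.05.

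Markers of other cell types differed between the tumours whose IGF genes are compared. Skeletal muscle markers were higher in KPH2 2 to 4 for 17 of 17 genes, 2 of them called by edgeR, and their summed level was 1748 to 3178 CPM in KP, 4087 to 18426 CPM in KPH2 2 to 4 and 1443 CPM in KPH2 1. When the score of these markers entered the model, the log2 fold change of Igf1r was 0.56 with an adjusted p of 0.603 by edgeR, and none of the 10 was called, where 3 genes were called in all under this model. The difference was farther from 0 than without the score for Igf1 (−1.02), Igfbp3 (0.46), Igfbp5 (3.27) and Igfbp6 (−1.91). It was nearer to 0 for Igfbp2 (0.09), Igfbp4 (0.07), Igfbp7 (−0.30), Irs1 (0.33) and Irs2 (−0.15), and for the pathway gene Foxo4 (0.016). The summed muscle levels of KP and KPH2 2 to 4 did not overlap, so a model with this score cannot clearly separate muscle content from genotype. KPH2 1 had the lowest muscle level of the series and an Igf1r level among those of KPH2 2 to 4. It is a single tumour, set aside in the main comparison, and the part of muscle content in the Igf1r difference was not tested.

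Fibroblast markers were lower for 9 of 9 tested genes, 1 of them (Pdgfra) called, with a summed level of 12871 to 21687 CPM in KP, 7579 to 15436 CPM in KPH2 2 to 4 and 8947 CPM in KPH2 1. Pericyte and smooth muscle markers were lower for 7 of 7 genes, with 1 called, and summed to 324.9 to 766.3 CPM in KP, 255.7 to 617.1 CPM in KPH2 2 to 4 and 164.5 CPM in KPH2 1. Macrophage markers were lower for 11 of 12 genes, none of them called, with sums of 2520 to 4583 CPM in KP, 1861 to 2786 CPM in KPH2 2 to 4 and 2372 CPM in KPH2 1. Of the proliferation markers 3 of 5 were higher and none was called. Among the smaller lists, adipocyte markers were lower for 2 of 2 tested genes, T cell markers for 5 of 6, and Schwann cell markers were higher for 4 of 5, with 1 called. No list had a marker at 0 in all libraries, and the part of these cells in the levels of the IGF genes was not tested.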

How the data were processed

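RNA of 4 KP and 4 KPH2 tumours (FFPE) was freed of ribosomal RNA before stranded libraries were built. Per the labels and methods, the authors called bases with CASAVA 1.8.2, used STAR 2.4 to align them to GRCm38, and obtained from HTSeq 0.6.1 the number of uniquely aligned reads of each RefSeq gene; the counts were deposited without normalization. The strand setting of the counting is not given in the sources used here. The authors also deposited log2 values (rlog of DESeq2 1.6) for 7 and for 8 tumours, of which those for 7 tumours entered an alternative here. All per-sample columns were assigned to a tumour.

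Counts were tested in R 4.3.3 with edgeR 4.0.16 (TMM, minimum count 10, minimum total count 15, robust quasi-likelihood test), without covariates, over 14867 genes for 7 tumours and 14805 for 8. P-values were adjusted by the Benjamini-Hochberg method across every gene tested and called under 0.05. CPM used one TMM scaling over all 8 libraries, and log2 CPM a prior count of 2. The biological coefficient of variation was 0.313 over 7 tumours and 0.347 over 8. Exact permutation tests were two-sided, on log2 CPM. Libraries were treated as separate tumours, so p-values weigh the difference between the groups against the spread between these tumours. Exon lengths came from GENCODE M21 transcripts (GRCm38) matched to RefSeq, and gene positions from RefSeq GRCm38.p6. Scripts were tested on simulated data.

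The genes named were the 10 members, Epas1, the pathway genes called in either set or otherwise the 2 with the smallest p in each direction, and the 3 genes most correlated with the member of smallest p in each direction. Genes outside this rule, such as Igf2 and Pik3cd, were named after their values were seen. An allele that all mice carried and 1 gene of the pathway list are not reported here. Members and lists were chosen with earlier results of these data known. Alternatives were all 8 tumours, other scalings (RLE, upper quartile), no filter or a mean count of at least 50, a prior count of 0.5, leaving out each tumour, a skeletal muscle score as covariate, edgeR without robust estimates, limma 3.58.1 on the rlog values, and DESeq2 1.42.0, either with a normal prior on fold changes or with none. DESeq2 over all 8 tumours was added after seeing the data.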

Additional observations from a re-analysis of the deposited data

Results flagged for a closer look

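The 10 IGF genes, Epas1 and the 4 pathway genes named by rule were tested per group for 1 tumour far from the other 3. The measure was the gap from this tumour to its nearest neighbour divided by the range of the group of 4, on log2 CPM. Of 30 such tests 3 exceeded the 95% limit, where chance flags about 1 in 20. On this log2 scale none of the 3 concerned one of the 10 IGF genes. Ratios formed on the linear CPM printed below differ from these and were not used. Epas1 in KP 5 was at 59.2 CPM, below the 83.2 to 86.8 CPM of the other KP tumours (ratio 0.889), and still above every KPH2 tumour. Foxo4 in KPH2 3 was at 51.3 CPM, above the 25.6 to 27.5 CPM of the other KPH2 tumours (ratio 0.896). Pappa2 in KPH2 1 was at 21.7 CPM, above the 1.01 to 1.30 CPM of the other KPH2 tumours (ratio 0.927).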

How the results depend on the processing

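Over 10 IGF genes and 18 alternatives, 176 of 180 fitted differences kept their direction. The 4 that turned were all of Igfbp3, whose log2 fold change of 0.04 became −0.13 with all 8 tumours by edgeR and by DESeq2 (−0.13), and ranged from −0.21 to 0.22 with 1 tumour left out. By the exact permutation test the mean difference in log2 CPM of Igfbp3 turned to −0.053 over all 8 tumours and ran from −0.22 (without KP 5) to 0.33 with 1 tumour left out, and that of Irs2 ran from −0.48 to 0.073 (without KP 7). DESeq2 called 1 IGF gene, Igf1r, without a prior, with a prior and over all 8 tumours, against 0 by edgeR; in no other alternative was a member called. The exact permutation test passed for 1 member, and for 0 with any tumour left out, where the smallest p it allows is 0.1 or 0.067. The log2 fold change of Igf1r ranged from 0.32 to 0.56 over all alternatives, with adjusted p from 0.00651 to 0.603.

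Pathway genes called were 0 by edgeR, 3 by DESeq2 with and without a prior, 1 (Stat5b) by DESeq2 over all 8 tumours, and 0 to 1 with a tumour left out, the 1 being Pappa2 without KP 8. Over all genes, the 292 called became 1 over all 8 tumours, 3 with the muscle covariate, 1179 by DESeq2, 1164 by DESeq2 with a prior and 610 by DESeq2 over all 8 tumours. With 1 tumour left out the count ran from 55 (without KPH2 2) to 349, and was 130 without KP 6, 73 without KP 7, 130 without KP 8, 159 without KPH2 3 and 153 without KPH2 4. The cause of these changes was not tested. Under the TMM, RLE and upper-quartile scalings alike the median of all genes was −0.02. No paired analysis was made, because KP and KPH2 tumours came from mice of different genotypes and the labels give no pairing between them. The 4 to 310 counts of Igfbp2 per tumour limit its precision.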
